A study of Rattus norvegicus with 8 samples.

Results

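Genes of cholesterol and fatty acid synthesis were followed in the RNA of rat hippocampal neurons, separately for the somatic and the process compartment. They are 32 of the 28909 gene symbols of the count table and were chosen by name: 17 enzymes of the sterol branch, 10 enzymes of the fatty acid branch and 5 genes that regulate these branches or transfer sterols. Primary neurons of embryonic Sprague-Dawley rats were grown on porous filter inserts, with the somata on the upper side and processes on the lower side, and received PTX (picrotoxin, an antagonist of GabaA receptors that raises network activity) or its vehicle ethanol for 48 h, from 18 to 20 days in vitro. There were 4 groups of 2 libraries each: somata of control cultures, somata of PTX-treated cultures, processes of control cultures and processes of PTX-treated cultures. The labels give no genotype or transgene, and markers of astrocytes were detected beside those of neurons in every library. Nothing in the labels says that the 2 libraries of a group came from separate cultures, so p-values measure the spread between these libraries, which may be technical.

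Cells build cholesterol from acetyl-CoA. The mevalonate steps make isoprenoid units, these are joined to squalene, and squalene is closed to the first sterol ring and trimmed to cholesterol. Fatty acids start from the same acetyl-CoA, which is carboxylated, built into saturated chains by fatty acid synthase and then elongated and desaturated. Both branches are controlled by the SREBP transcription factors, encoded by Srebf1 and Srebf2. SREBPs are escorted out of the endoplasmic reticulum by Scap and held back there by Insig1 when sterols are plentiful. Brain cholesterol is made locally because lipoproteins do not cross the blood-brain barrier, and in the adult brain astrocytes carry out much of this synthesis.

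Upstream sequences are shown for the 6 members that changed with PTX in at least 1 compartment, followed by Scd2 and Sc5d, the members with the largest differences in favour of processes under TMM scaling (with library size only the log2 fold change of Sc5d was -0.15 in control cultures). Each runs from 250 bases before to 50 bases after the annotated start, 5′ to 3′ on the strand of the gene, with the sequences and coordinates from RefSeq on assembly GRCr8. Capitals mark the letters CCAAT, bound by NF-Y, and GGGCGG, bound by Sp1, or their reverse complements (ATTGG and CCGCCC). The 2 motifs share no letters in these sequences.
Acat2 (chr1:50100590-50100889, + strand): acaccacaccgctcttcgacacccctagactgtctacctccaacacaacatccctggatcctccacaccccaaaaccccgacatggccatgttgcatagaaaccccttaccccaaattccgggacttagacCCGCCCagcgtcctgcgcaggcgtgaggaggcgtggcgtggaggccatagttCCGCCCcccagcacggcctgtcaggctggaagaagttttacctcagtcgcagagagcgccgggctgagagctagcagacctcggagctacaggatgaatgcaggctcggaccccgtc
Mvd (chr19:67414925-67415224, - strand): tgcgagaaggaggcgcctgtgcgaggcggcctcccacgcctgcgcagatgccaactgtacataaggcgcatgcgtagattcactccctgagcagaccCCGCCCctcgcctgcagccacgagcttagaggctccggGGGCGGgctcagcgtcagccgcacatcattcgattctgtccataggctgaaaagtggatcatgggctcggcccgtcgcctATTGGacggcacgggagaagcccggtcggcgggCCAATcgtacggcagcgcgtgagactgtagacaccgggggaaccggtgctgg
Lss (chr20:12118181-12118480, - strand): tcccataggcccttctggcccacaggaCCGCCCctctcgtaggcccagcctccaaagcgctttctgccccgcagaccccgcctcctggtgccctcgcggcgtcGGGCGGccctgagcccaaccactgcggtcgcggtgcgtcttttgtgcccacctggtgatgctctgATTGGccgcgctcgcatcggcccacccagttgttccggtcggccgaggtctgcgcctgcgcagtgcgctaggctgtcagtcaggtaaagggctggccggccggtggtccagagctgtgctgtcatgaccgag
Cyp51 (chr4:30991443-30991742, + strand): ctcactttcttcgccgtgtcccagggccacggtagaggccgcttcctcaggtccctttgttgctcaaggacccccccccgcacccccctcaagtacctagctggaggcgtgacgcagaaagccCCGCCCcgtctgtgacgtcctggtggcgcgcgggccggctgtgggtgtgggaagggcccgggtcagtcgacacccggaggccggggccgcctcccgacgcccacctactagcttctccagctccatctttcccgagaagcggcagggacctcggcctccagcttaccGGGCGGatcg
Msmo1 (chr16:29746863-29747162, + strand): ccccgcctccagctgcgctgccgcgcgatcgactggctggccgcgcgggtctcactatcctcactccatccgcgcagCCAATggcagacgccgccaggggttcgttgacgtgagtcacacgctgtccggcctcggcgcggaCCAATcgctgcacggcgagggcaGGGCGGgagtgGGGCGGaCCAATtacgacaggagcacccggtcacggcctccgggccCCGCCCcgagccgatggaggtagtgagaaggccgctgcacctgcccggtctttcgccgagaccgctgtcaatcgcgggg
Insig1 (chr4:8057720-8058019, - strand): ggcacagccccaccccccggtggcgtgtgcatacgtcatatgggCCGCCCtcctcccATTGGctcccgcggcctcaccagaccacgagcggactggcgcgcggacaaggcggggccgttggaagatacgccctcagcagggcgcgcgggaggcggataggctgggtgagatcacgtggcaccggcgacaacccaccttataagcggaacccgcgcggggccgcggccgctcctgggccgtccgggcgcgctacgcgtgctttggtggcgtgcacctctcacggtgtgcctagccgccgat
Scd2 (chr1:253118127-253118426, + strand): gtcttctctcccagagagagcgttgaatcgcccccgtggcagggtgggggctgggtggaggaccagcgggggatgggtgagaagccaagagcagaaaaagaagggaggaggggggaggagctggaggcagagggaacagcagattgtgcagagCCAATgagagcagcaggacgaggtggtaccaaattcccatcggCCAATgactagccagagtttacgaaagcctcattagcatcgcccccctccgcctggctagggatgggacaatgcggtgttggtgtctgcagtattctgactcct
Sc5d (chr8:51538228-51538527, - strand): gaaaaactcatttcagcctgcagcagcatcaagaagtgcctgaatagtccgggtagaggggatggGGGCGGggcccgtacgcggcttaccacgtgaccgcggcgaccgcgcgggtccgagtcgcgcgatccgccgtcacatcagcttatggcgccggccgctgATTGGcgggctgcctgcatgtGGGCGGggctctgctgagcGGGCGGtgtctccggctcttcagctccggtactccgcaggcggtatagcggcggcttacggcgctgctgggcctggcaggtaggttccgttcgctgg

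A start site sequence was given for 25 of the 32 members. CCAAT was found on either strand in 19 of these 25 (76.0%), against 39.6% of the 27457 genes with such a sequence and 39.2% of the 9922 that were also tested for expression. GGGCGG was found in 20 of 25 (80.0%), against 36.0% of all and 64.6% of tested genes. Of the sequences printed above, that of Msmo1 held 3 matches to each motif, and those of Acat2 and Cyp51 held matches to GGGCGG alone. The third motif searched, TCACNCNAC on either strand, spells 1 form of the sterol regulatory element to which SREBPs bind, and it was found in 0 of 25 members and in 2.75% of all genes. A match is only a match of letters, and the absence of these letters from a window of this length says nothing about SREBP binding.

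Library totals ranged from 12290890 to 18455662 counts. Genes of the mitochondrial genome took 22.6% to 26.7% of the counts in somata and 68.5% to 72.5% in processes, so that nuclear genes shared 9517542 to 11227599 counts in somata and 4702054 to 5491237 in processes. Levels are given as CPM, counts per 1000000 after scaling by edgeR's TMM method, and they are compared within a gene, since they are not corrected for transcript length. Of the 32 members, 31 had more than 20 reads in at least 2 libraries and were tested among 14309 genes by the quasi-likelihood method of edgeR. P-values were adjusted over all of these genes (Benjamini-Hochberg), with 0.05 as the threshold. The exception was Elovl6, which elongates palmitate and had 1 to 15 reads per library. Ebp, a sterol isomerase, entered the test only through somata, with 2 to 5 reads in the process libraries.

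**Figure D1:**
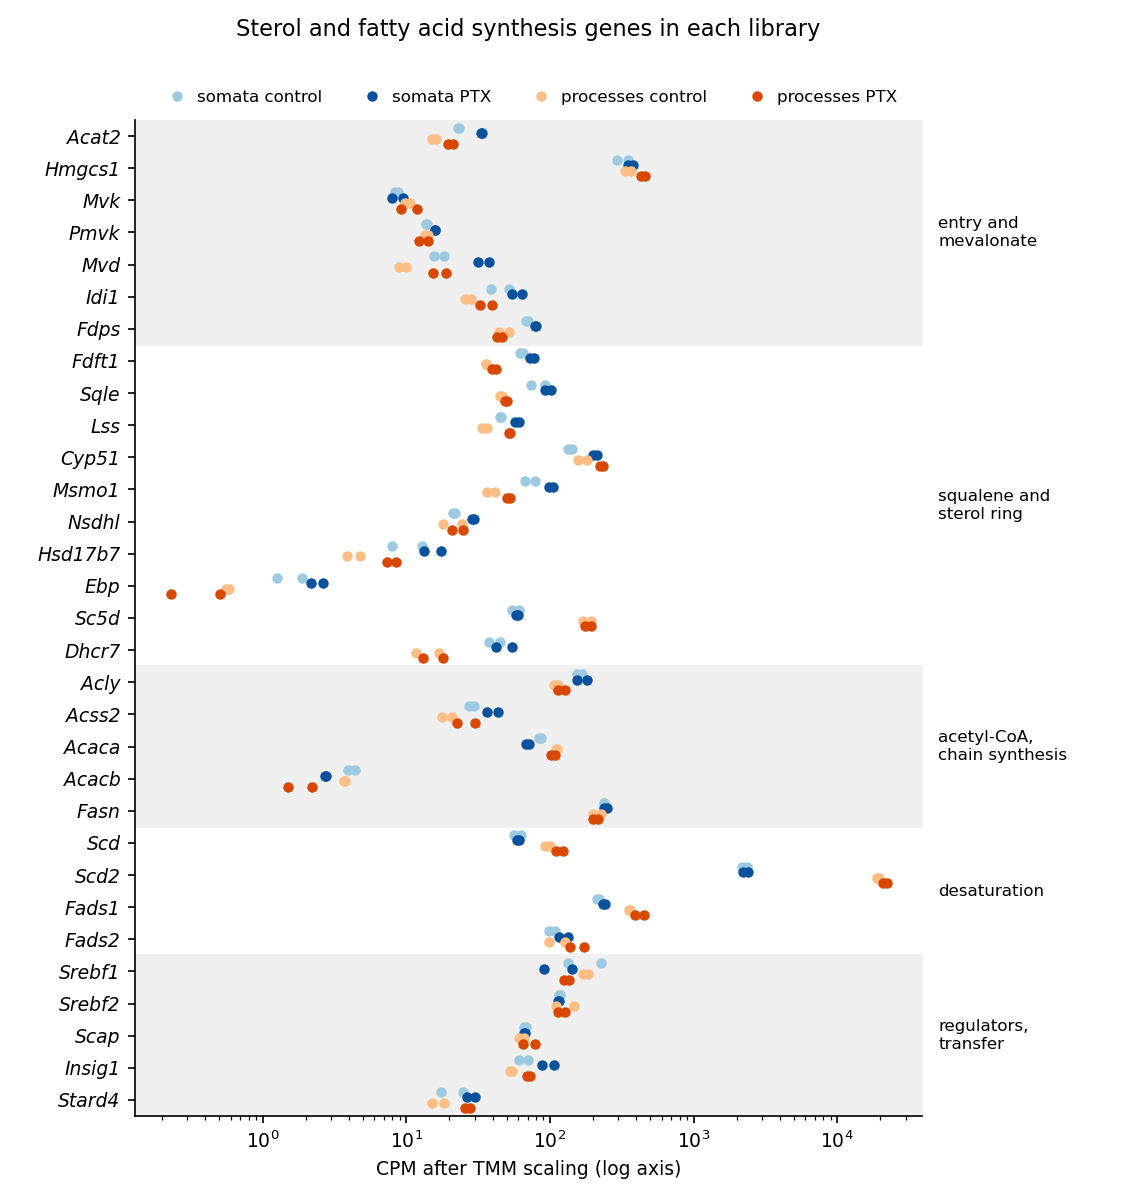
CPM after TMM scaling (log axis) of the 31 tested members in each of the 8 libraries, ordered by pathway step, with 2 points per group. Scd2 lay between 2180 and 2387 CPM in somata and between 18907 and 22126 CPM in processes, and most sterol enzymes lay further left in processes than in somata.

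In somata, 5 of the 31 tested members rose with PTX and 0 fell, while 3.59% of all tested genes were called there (2.09% raised and 1.5% lowered). Of the 5, 4 belong to the sterol branch and the other one is Insig1. All 17 sterol enzymes had a positive log2 fold change, with a median of 0.37, and in 14 of them both PTX libraries lay above both control libraries, which was the case for 24.0% of all tested genes. The median over all tested genes was -0.01. In the fatty acid branch 0 of 9 tested enzymes passed, and their median was 0.03.

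Mvd, which decarboxylates mevalonate diphosphate to isopentenyl diphosphate, changed the most among the members that passed. Its level was 18.4 and 15.5 CPM in somata of control cultures and 37.8 and 31.7 CPM after PTX, a gap wider than the spread within either group. The log2 fold change was 1.03 (standard error 0.145, adjusted p = 0.00385), which is 2.05 times the control level. Acat2, the thiolase that joins acetyl-CoA units ahead of the mevalonate steps, was measured at 23.3 and 23.0 CPM in control and at 33.0 and 33.8 CPM after PTX. The replicates of Acat2 nearly coincided, and its log2 fold change was 0.53 (standard error 0.105, adjusted p = 0.0199). Reads of Acat2 may be shared with the copy Acat2l1, which had 52 to 428 reads per library.

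Among the later steps, Cyp51, which removes a methyl group from lanosterol, was measured at 143 and 135 CPM in control and 214 and 200 CPM after PTX. Msmo1, the oxidase acting on the following methyl groups, was measured at 78.6 and 66.7 CPM in control and 106 and 98.4 CPM after PTX. Neither gene overlapped between the groups, and the same rise without overlap was seen in 24.0% of all tested genes. The log2 fold change was 0.58 for Cyp51 (standard error 0.112, adjusted p = 0.0182) and 0.49 for Msmo1 (standard error 0.116, adjusted p = 0.0447). The other enzymes of the squalene and ring steps, 8 in number, had log2 fold changes from 0.02 for Sc5d to 0.62 for Ebp and did not pass. Lss, which closes the first sterol ring, came closest, with 45.1 and 45.9 CPM in control, 57.2 and 61.0 CPM after PTX and an adjusted p of 0.068. Of the 7 enzymes of the entry and mevalonate steps, the remaining 5 did not pass, with log2 fold changes from 0.02 for Mvk, the mevalonate kinase, to 0.37 for Idi1, which interconverts the isoprenoid units.

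Insig1, itself a target gene of SREBPs, was measured at 70.6 and 61.5 CPM in control somata and at 107 and 88.1 CPM after PTX, and its log2 fold change was 0.56 (standard error 0.12, adjusted p = 0.0288). Srebf1 stood at 133 and 226 CPM in control and 91.1 and 142 CPM after PTX, so that the groups overlapped, and its log2 fold change of -0.63 had a standard error of 0.239 and an adjusted p of 0.221. Srebf2, whose product acts mainly on sterol genes, stood at 117 and 117 CPM in control and 115 and 114 CPM after PTX (log2 fold change -0.03, adjusted p = 0.954). Neither SREBP gene passed, and the replicates of Srebf1 lay much further apart than those of Srebf2.

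The number of calls depended on how the replicates were handled. With the replicate number as a block, 11 members rose and 3 fell in somata, where 7.21% of all tested genes were raised and 6.79% lowered. The additional rises were those of Lss (adjusted p = 0.00397), Idi1 (0.0044), Nsdhl (0.00669) and Hsd17b7 (0.00288), the last of which is a ketoreductase of the demethylation steps, as well as those of Acss2 (0.000715), which makes acetyl-CoA from acetate, and of the sterol carrier Stard4 (0.00531). The falls were those of Srebf1 (0.000971), Acaca (0.0305) and Acacb (0.0402), and the last 2 encode the acetyl-CoA carboxylases. Without replicate 2 of somata control 0 of the 5 members passed, without replicate 1 of somata control or of somata PTX only Mvd did, and without replicate 2 of somata PTX only Mvd and Insig1 did. Their log2 fold changes stayed positive, between 0.37 and 1.15, in these fits. With upper quartile normalization Msmo1 did not pass.

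In processes, 2 members rose with PTX and 0 fell, against 3.74% of all tested genes called (1.64% raised and 2.1% lowered). Both belong to the sterol branch. Mvd was measured at 10.04 and 8.93 CPM in control and at 19.1 and 15.5 CPM after PTX, from 76 to 166 reads per library, and its log2 fold change was 0.86 (standard error 0.18, adjusted p = 0.0277). Lss was measured at 36.2 and 33.8 CPM in control and at 51.8 and 53.2 CPM after PTX, and its log2 fold change was 0.58 (standard error 0.108, adjusted p = 0.0168). In both genes the PTX libraries lay above the control libraries, as in 20.1% of all tested genes.

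The 3 sterol enzymes called in somata alone had values on the same side in processes. Acat2 was measured at 15.1 and 16.1 CPM in control and 19.6 and 21.0 CPM after PTX, and Cyp51 at 158 and 181 CPM against 234 and 224 CPM. Msmo1 was measured at 41.8 and 36.5 CPM in control and 52.6 and 50.1 CPM after PTX. In all 3 both PTX libraries lay above both control libraries, as in 20.1% of all tested genes. Their adjusted p-values were 0.134, 0.067 and 0.139. Insig1, with 54.8 and 53.2 CPM in control and 69.8 and 72.8 CPM after PTX, also showed no overlap (log2 fold change 0.40, adjusted p = 0.128).

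Over the sterol branch in processes, 14 of 17 log2 fold changes were positive, with a median of 0.19, and 10 of 17 had both PTX libraries above both control libraries (20.1% of all tested genes). The negative values were those of Ebp, Fdps and Pmvk, with adjusted p-values of 0.721, 0.68 and 0.869. Hsd17b7 had one of the largest changes, from 4.79 and 3.88 CPM to 8.50 and 7.34 CPM (log2 fold change 0.86, standard error 0.301, adjusted p = 0.168). The 9 tested fatty acid enzymes had a median of 0.16, close to that of the sterol branch. All 4 tested desaturases were positive in processes, and in each of them both PTX libraries lay above the control libraries. Fads2, which carries out the first desaturation step on polyunsaturated chains, had the largest change of them. It was measured at 128 and 99.2 CPM in control and 174 and 138 CPM after PTX. Its log2 fold change was 0.46 and its adjusted p 0.156. Srebf1 stood at 171 and 183 CPM in control and 125 and 136 CPM after PTX (log2 fold change -0.44, standard error 0.243, adjusted p = 0.408), and Srebf2 at 147 and 111 CPM against 128 and 114 CPM.

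With the replicate block 11 members rose and 2 fell in processes, where 5.1% of all tested genes were raised and 6.09% lowered. Beside Mvd and Lss these were Cyp51 (adjusted p = 0.00368), Msmo1 (0.0134), Idi1 (0.0153), Hsd17b7 (0.00842) and Hmgcs1 (0.0342), which makes HMG-CoA, together with Acss2 (0.024), Fads2 (0.00172), Insig1 (0.0114) and Stard4 (0.000954). The falls were those of Srebf1 (0.0242) and Acacb (0.0401), the latter from 33 and 32 reads to 13 and 22. Leaving out any 1 of the 4 process libraries left 0 members called, while the log2 fold change stayed between 0.71 and 1.01 for Mvd and between 0.53 and 0.63 for Lss. With only the 4 process libraries fitted, Mvd alone passed.

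**Figure D2:**
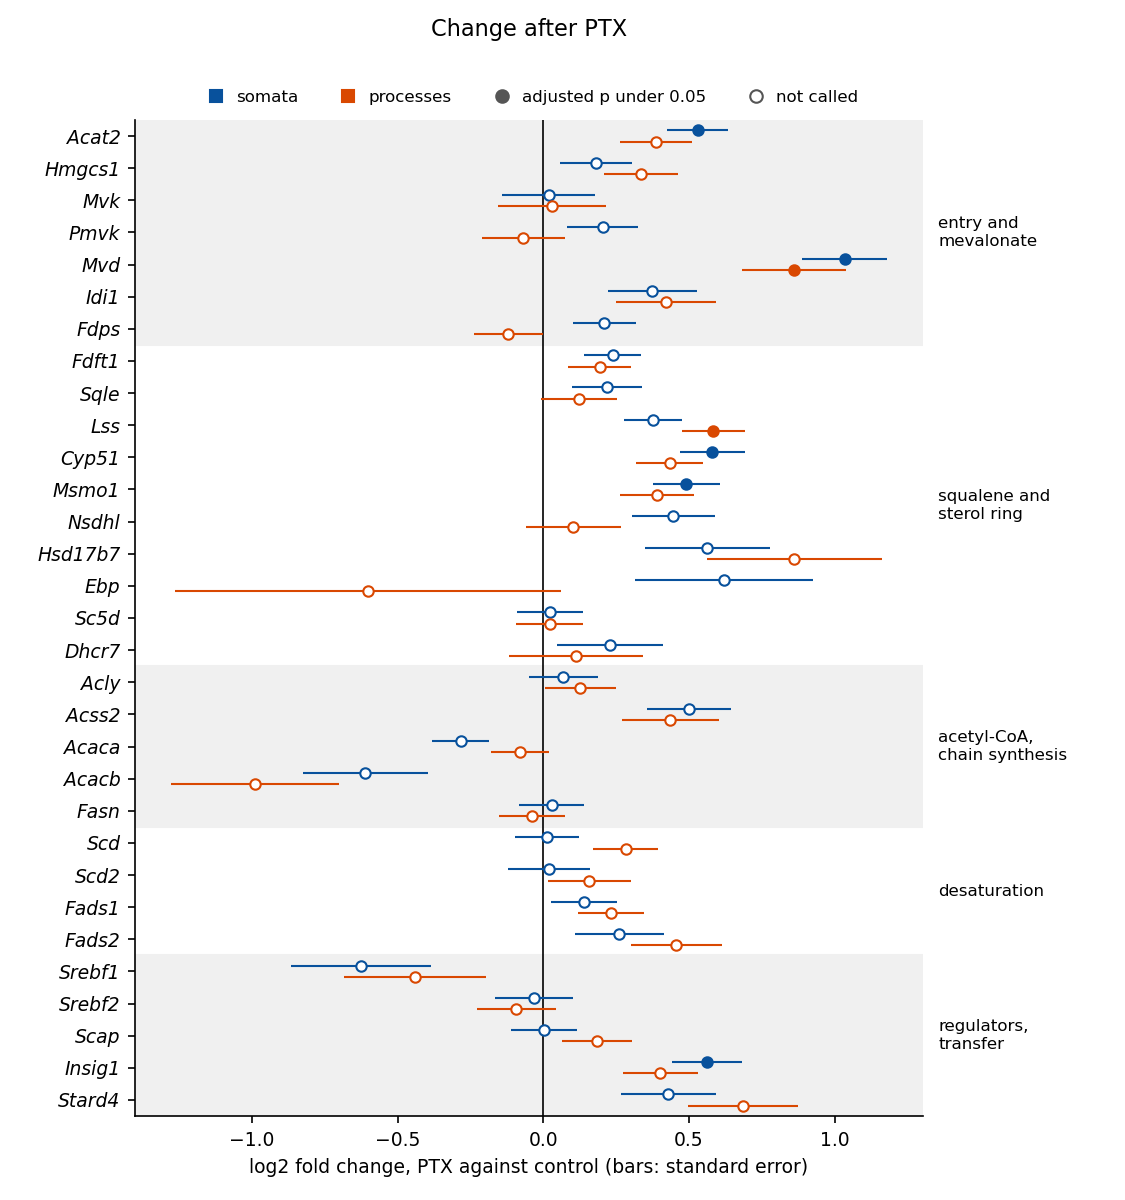
Log2 fold change of PTX against control for the 31 tested members in somata and in processes, with bars for 1 standard error and filled points for an adjusted p under 0.05. The 17 sterol enzymes lie to the right of 0 in somata, the fatty acid enzymes scatter around 0 there, and Srebf1, Acaca and Acacb lie to the left in both compartments.

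Whether PTX acted differently in the compartments was tested as the difference of the 2 PTX effects, and 0 of the 31 members passed (quasi-likelihood test; 0.0% of all tested genes). At an unadjusted p under 0.05 there were 0 members and 572 of the 14309 genes, and the likelihood ratio test, DESeq2 and the block (0.105% of all tested genes called) also gave 0 members. For the genes called in 1 compartment alone, this difference, counted as positive where PTX raised the processes more, was -0.14 for Acat2 (standard error 0.163), -0.15 for Cyp51 (0.16), -0.10 for Msmo1 (0.172), -0.16 for Insig1 (0.175) and 0.20 for Lss (0.147), each within about 1.5 standard errors of 0. For these genes a call in somata and not in processes, or the reverse, is thus not shown to be a difference between the compartments.

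Summed over the 17 sterol enzymes, the level was 1034 ± 94.8 CPM (SD, n = 2) in control somata and 1289 ± 64.0 CPM after PTX, 24.7% higher. In processes it was 1023 ± 43.6 CPM and 1240 ± 11.9 CPM, 21.2% higher. The 8 tested fatty acid enzymes other than Scd2 summed to 898 ± 21.6 CPM in control somata and 948 ± 20.1 CPM after PTX, 5.62% higher, and to 1026 ± 43.5 CPM and 1156 ± 110 CPM in processes, 12.6% higher. In each of these 4 comparisons the PTX libraries lay above the control libraries, but an exact permutation test of 2 against 2 libraries cannot give a p below 0.333, and the sums follow their most abundant members. The 5 regulators summed to 411 to 490 CPM across the 8 libraries, and their PTX and control libraries overlapped in both compartments.

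**Figure D3:**
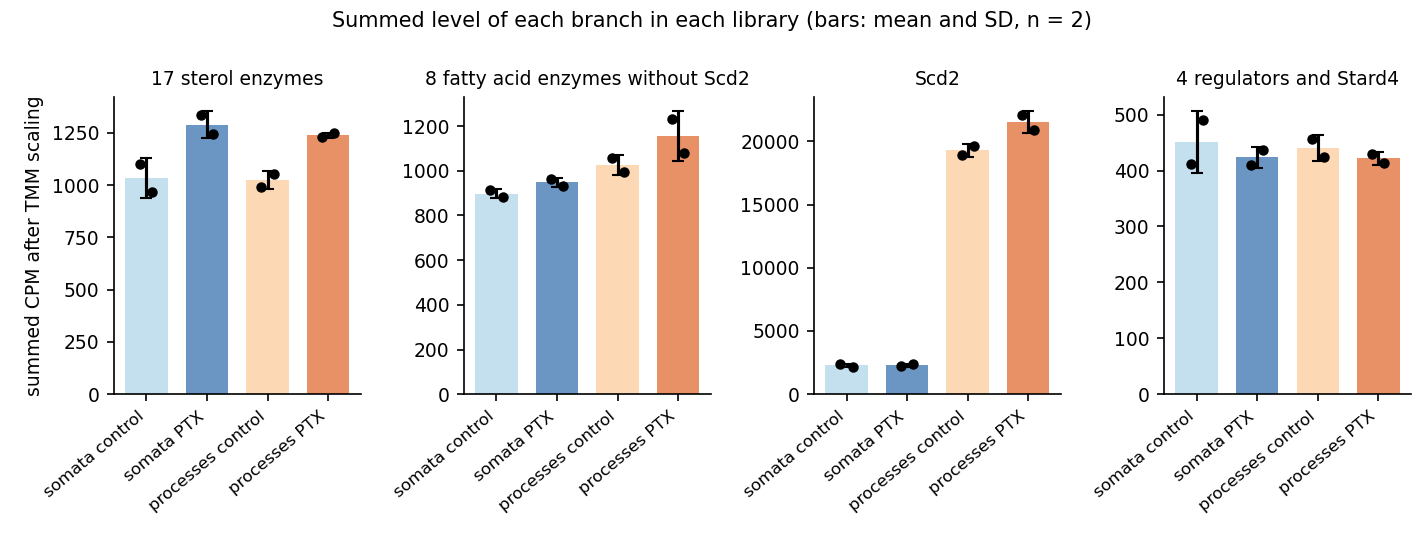
Summed CPM after TMM scaling of the 17 sterol enzymes, the 8 tested fatty acid enzymes other than Scd2, Scd2 alone and the 5 regulators, with a point for each library and bars for the mean and SD (n = 2, each panel with its own axis from 0). The sterol sum is higher after PTX in both compartments, and Scd2 stands apart between somata (2272 ± 129 CPM in control) and processes (19284 ± 533 CPM).

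In processes against somata of control cultures, leaving out Ebp, which entered the test only through somata, 5 of 30 members were higher and 12 lower. Of all tested genes 25.8% were higher and 21.9% lower, together 47.7%. Ebp was called lower as well. Scaling by library size only left Scd2 alone on the higher side and 29 members lower, Ebp included, where 92.7% of all tested genes were lower. In the sterol branch, leaving out Ebp for its low counts in processes, 10 of 16 enzymes were lower and 1 was higher, with a median log2 fold change of -0.54, where all tested genes had a median of -0.05. In the fatty acid branch 4 of 9 enzymes were higher (Scd2 alone with library size only) and 2 lower, with a median of 0.13. The branches were not tested against each other. Under TMM scaling the differences are relative to the typical gene of a library. Fewer cells or cell parts and less RNA in each cannot be told apart in bulk RNA.

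Under TMM scaling the largest difference of any member was that of Scd2, a stearoyl-CoA desaturase that makes oleate and is the main form in brain. Its level in control cultures was 2363 and 2180 CPM in somata and 18907 and 19661 CPM in processes, and in PTX-treated cultures it was 2219 and 2387 CPM in somata and 22126 and 20910 CPM in processes. The log2 fold change in processes was 3.09 in control (standard error 0.154, adjusted p = 5.13e-07) and 3.22 after PTX (standard error 0.155, adjusted p = 4.72e-07). With library size only these values were 1.28 and 1.39, smaller in size than that of Dhcr7 (-3.36 in control). By number of reads, which also grows with transcript length, Scd2 held rank 1 among all nuclear genes in each of the 4 process libraries and rank 4 or 5 in somata. It took from 3.34% (95% Wilson interval 3.33% to 3.36%) to 4.0% (3.98% to 4.02%) of the nuclear reads of a process library, and from 0.535% (0.531% to 0.539%) to 0.592% (0.587% to 0.597%) in somata. These intervals cover counting error only. The PTX effect on Scd2 did not pass in somata (log2 fold change 0.02) or in processes (0.16), with adjusted p-values of 0.975 and 0.65. The copy Scd4 had 18 to 52 reads per library, so that few reads were assigned to it, while reads that fit both Scd2 and Scd cannot be followed here.

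The other desaturases of the chain differed in the same direction but by less, although not when scaled by library size only (-1.11 for Scd and -1.08 for Fads1). Scd was measured at 62.6 and 56.3 CPM in somata and 92.8 and 99.7 CPM in processes of control cultures (log2 fold change 0.69, standard error 0.111, adjusted p = 0.000497). Fads1, the delta-5 desaturase of polyunsaturated fatty acids, was measured at 214 and 220 CPM in somata and 358 and 358 CPM in processes (log2 fold change 0.72, standard error 0.114, adjusted p = 0.000444). Fads2 did not pass, with a log2 fold change of 0.13 and an adjusted p of 0.506. Of the chain synthesis genes, Acaca was higher in processes (0.38, adjusted p = 0.00937, and -1.43 with library size only) and Fasn did not pass (-0.16, adjusted p = 0.259). Acly and Acss2, which supply cytosolic acetyl-CoA from citrate and from acetate, were lower in processes by log2 values of -0.54 for Acly (adjusted p = 0.00403) and -0.55 for Acss2 (adjusted p = 0.0155).

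Sc5d, the desaturase that acts late in cholesterol synthesis, was the single sterol enzyme higher in processes, which turned to -0.15 with library size only. Its level was 61.4 and 54.5 CPM in control somata and 170 and 193 CPM in control processes, and the log2 fold change was 1.65 in control (standard error 0.117, adjusted p = 2e-06) and 1.65 after PTX. Dhcr7, which acts on the product of Sc5d in the same pathway, lay on the opposite side, with 44.8 and 37.9 CPM in somata and 16.8 and 11.6 CPM in processes (log2 fold change -1.54, standard error 0.209, adjusted p = 0.000166). Hsd17b7 was measured at 12.9 and 7.99 CPM in somata and 4.79 and 3.88 CPM in processes (log2 fold change -1.26, standard error 0.274, adjusted p = 0.0034). Ebp, the isomerase ahead of Sc5d, had 44 and 32 reads in somata and 5 and 5 in processes, and its log2 fold change was -1.43 (standard error 0.46, adjusted p = 0.0254). This call had to favour somata, since Ebp passed the filter on low counts through somata alone, and it was not made by DESeq2 (adjusted p = 0.0859) or without replicate 1 of somata control (0.118) or either processes control library (0.108 and 0.0937). Past a log2 fold change of 1 there were 2 members higher (11.6% of all tested genes) and, leaving out Ebp, 2 lower (7.58%).

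Smaller differences made up most of the sterol branch. Msmo1 (-0.89), Sqle (-0.88), the squalene monooxygenase, Fdft1 (-0.83), the squalene synthase, Mvd (-0.84), Idi1 (-0.75), Acat2 (-0.57), Fdps (-0.52) and Lss (-0.38) were lower in control processes with adjusted p-values from 9.24e-05 to 0.0133. Hmgcs1 (0.14), Mvk (0.26), Pmvk (0.00), Cyp51 (0.29) and Nsdhl (-0.02) did not pass. Cyp51 passed as higher in processes with the block (adjusted p = 0.0125), and Insig1 and Stard4 passed as lower (0.0172 and 0.0305). The block called 4269 of the 14309 tested genes higher in this comparison and 4003 lower. Without the block 0 of the 5 regulators and transfer genes passed (47.7% of all tested genes called). Their log2 fold changes lay between -0.33 for Stard4 and 0.14 for Srebf2.

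In PTX-treated cultures, leaving out Ebp, 5 of 30 members were higher and 12 lower in processes (49.8% of all tested genes called, 25.7% higher and 24.0% lower). The higher members were again Scd2, Sc5d, Scd, Fads1 and Acaca, of which Scd2 alone stayed higher with library size only. Insig1 was among the lower ones here (-0.45, adjusted p = 0.011), while Lss (-0.17, adjusted p = 0.188) did not pass. The change of the compartment difference with PTX is the interaction tested above, which neither gene passed. Mvd stood at -1.01, and Ebp at -2.66 from 73 and 51 reads in somata against 2 and 5 in processes. The direction of 4 members, Sc5d, Acaca, Scd and Fads1, depended on the scaling. When the mitochondrial genome genes were left out, all 4 were called higher in both kinds of culture. Of 14290 genes then tested, 3681 were higher in control and 3678 in PTX-treated cultures. With library size only, which moved the median of all tested genes to -1.86 in control and -1.87 in PTX-treated cultures, Sc5d, Acaca, Scd and Fads1 turned negative in both, and Scd2 alone remained higher. With upper quartile normalization 4 members were higher and 16 lower in control cultures. All tested genes shifted as well, with 2750 of 14309 higher, 4704 lower and a median of -0.25.

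**Figure D4:**
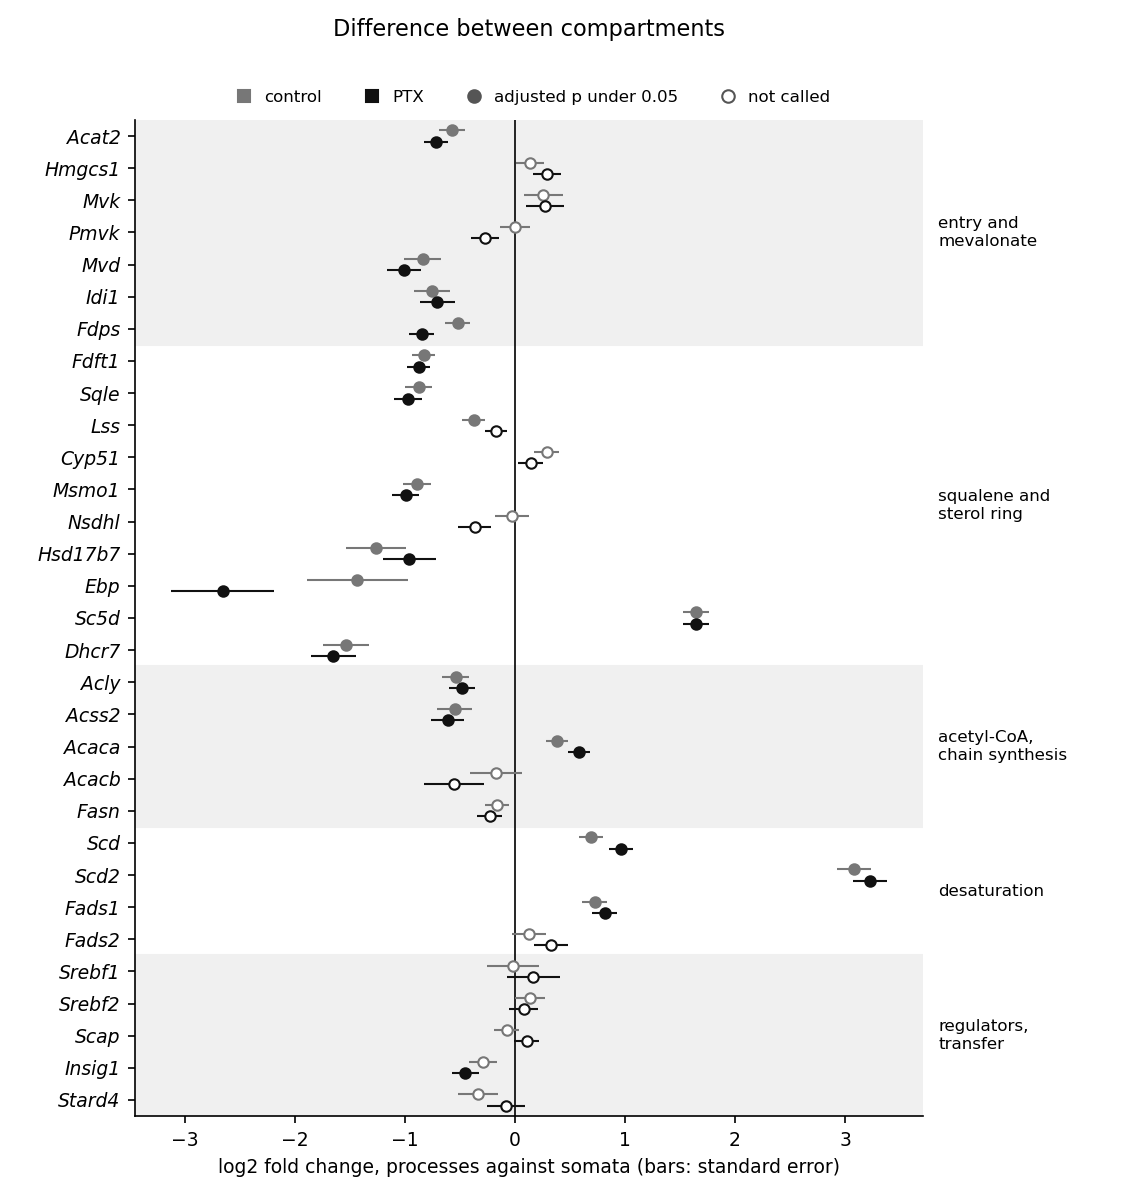
Log2 fold change of processes against somata for the 31 tested members in control and in PTX-treated cultures, with bars for 1 standard error and filled points for an adjusted p under 0.05. Scd2 and, under this TMM scaling but not with library size only, Sc5d lie far to the right in both kinds of culture, and most sterol enzymes lie to the left. The regulators lie between -0.33 and 0.14 in control and between -0.45 (Insig1, called) and 0.17 in PTX-treated cultures.

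Markers of cell types were also compared between the compartments of control cultures, where 25.8% of all tested genes were higher and 21.9% lower in processes. These values are under TMM scaling, while with library size only 92.7% of all tested genes were lower. The 8 astrocyte markers, all tested, summed to 4092 to 4482 CPM in control somata and 13327 to 14938 CPM in control processes, and 4 of the 8 were higher and 2 lower in processes, with log2 fold changes up to 2.60 for Gfap. The 8 neuron markers summed to 1758 to 1952 CPM and 5060 to 5368 CPM, with 2 higher, led by Map2 (2.30), and 5 lower. The 11 oligodendrocyte lineage markers, of which 10 were tested, summed to 352 to 543 CPM and 516 to 658 CPM, with 1 higher and 1 lower. Of the 6 microglia markers 5 had a symbol among those counted, and none of these had enough reads to be tested. Of 5 endothelial and mural markers 4 had a symbol and 1 was tested, with Cldn5 at 0 reads in all libraries. The part of these markers in the differences of the synthesis genes was not tested.

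After PTX the summed astrocyte markers were 3170 to 4209 CPM in somata and 11416 to 12684 CPM in processes. Of the 8, Gja1 fell in somata (-0.61, adjusted p = 0.0215) and 0 passed in processes, where 3.59% and 3.74% of all tested genes were called. The neuron markers summed to 1713 to 1926 CPM and 4044 to 4739 CPM. In somata Gad1 and Gad2 rose (0.82 and 0.92) and Rbfox3 fell (-0.67), and in processes Gad2 and Slc17a7 rose (0.92 and 0.74). With the block 2 neuron markers rose and 3 fell in somata, and 3 rose and 3 fell in processes (14.0% and 11.2% of all tested genes called). The oligodendrocyte lineage markers summed to 312 to 481 CPM and 585 to 702 CPM, and 0 of 10 passed in either compartment. With the block 2 of this list fell in somata, Cnp among them, and Mbp fell in processes. Of the astrocyte list Aqp4 fell in somata as well as Gja1, while in processes Slc1a3 rose and Gja1 fell. In processes the astrocyte and neuron sums of the PTX libraries lay below those of the control libraries, while the sterol sum lay above. These marker sums follow their most abundant members, Gfap (29399 to 99640 reads per library) and Map2 (19179 to 42089). Singly, 7 of 8 astrocyte and 5 of 8 neuron markers had negative log2 fold changes in processes, and 1 and 3 had positive ones. In somata both marker sums overlapped between the groups. The part of these markers in the PTX changes of the sterol genes was not tested.

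Genes around the 2 branches were examined from fixed lists. Of all tested genes, 3.59% were called with PTX in somata and 3.74% in processes, or 14.0% and 11.2% with the block. Among 7 other sterol synthesis enzymes 5 were tested and 0 passed with PTX in either compartment, and with the replicate block 1 rose in processes. Of the 11 genes for SREBP processing and sterol sensing 0 passed, with or without the block. Of 16 genes for cholesterol uptake, storage, export and turnover, Soat1 passed in both compartments, and with the block 2 rose and 2 fell in somata and 1 rose and 1 fell in processes. Soat1 esterifies cholesterol for storage, and it was measured at 16.3 and 15.5 CPM in control somata and 27.5 and 24.6 CPM after PTX (log2 fold change 0.71, standard error 0.134, adjusted p = 0.0151). In processes Soat1 stood at 11.6 and 10.2 CPM in control and 21.2 and 17.1 CPM after PTX (0.81, standard error 0.16, adjusted p = 0.0217).

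Of 21 other genes of fatty acid synthesis, elongation and activation, 19 were tested. With the block 3 rose and 2 fell in somata and 1 rose and 1 fell in processes (14.0% and 11.2% of all tested genes called). Acss1, which makes acetyl-CoA from acetate in mitochondria, fell in both compartments. It was measured at 41.1 and 48.9 CPM in control somata and 20.3 and 25.1 CPM after PTX, and at 45.4 and 49.2 CPM in control processes and 23.9 and 24.0 CPM after PTX. The log2 fold changes of Acss1 were -0.99 (standard error 0.134, adjusted p = 0.00315) and -0.98 (standard error 0.145, adjusted p = 0.00567), while its cytosolic counterpart Acss2 lay above control in both compartments (0.50 and 0.44, adjusted p = 0.0951 and 0.212). Mlx, a partner of the glucose-sensing factor ChREBP, rose in somata from 14.9 and 13.6 CPM to 21.2 and 19.9 CPM (0.53, standard error 0.123, adjusted p = 0.0414). Of 12 fatty acid oxidation genes 0 passed with PTX, and their median log2 fold change was -0.12 in somata and -0.10 in processes. With the block Acadl, an acyl-CoA dehydrogenase, fell in processes (-0.69, adjusted p = 0.0034).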

How the data were processed

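Total RNA depleted of ribosomal RNA was sequenced from 2 libraries per group, with groups and replicate numbers taken from the labels. The authors trimmed reads with Trimmomatic, aligned them to Rnor 6.0 with Subread, counted them per Ensembl gene by featureCounts and summed by symbol, while the submitters' processing notes list STAR. The deposited values used here are these raw counts. Tables of the authors' own PTX comparisons (log2 fold changes, log2 CPM, likelihood ratios, p-values and FDR) were not used. Gene copies under 1 symbol are counted together, and the origin of reads from near-identical or overlapping genes is uncertain.

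The 14309 genes above 20 reads in 2 or more libraries were fitted over all 8 libraries with edgeR 4.0.16 in R 4.3.3 (TMM factors, 1 coefficient per group, glmQLFit and glmQLFTest, Benjamini-Hochberg adjustment within each contrast). Each standard error was derived from the log2 fold change and its F statistic. Library totals were 12290890 to 18455662 counts. The members, lists and named genes were chosen with earlier results of these data known. All 32 members are accounted for, with every library given for members called with PTX, for the largest called compartment differences (up to 4 each way, past a log2 fold change of 1), for Srebf1, Srebf2 and Insig1, and for called genes of the other lists. Differences between replicate 2 and replicate 1 correlated between all 6 pairs of groups (r from 0.27 to 0.54). The sources do not say what these numbers mark. The replicate number was a block in an alternative fit only, and calls are from the fit without it unless another fit is named. With the block, the common dispersion fell from 0.0132 to 0.00459. Also tried were edgeR's likelihood ratio test, DESeq2 1.42.0, other scalings, filters and thresholds, a prior count of 0.5 in place of 2, fitting 4 libraries, the replicate block and leaving out each library. Some genes of these pathways are not reported here.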

Additional observations from a re-analysis of the deposited data

Results flagged for a closer look

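Ebp, the sterol isomerase, had values on opposite sides of control in the 2 compartments, in CPM with both PTX libraries above the controls in somata and both below them in processes. Its log2 fold change with PTX was 0.62 in somata (44 and 32 reads in control, 73 and 51 after PTX) and -0.60 in processes (5 and 5 reads, then 2 and 5). The difference between the compartments was -1.22 for Ebp with a standard error of 0.732 and an adjusted p of 1 in the quasi-likelihood test, and neither PTX effect passed (adjusted p = 0.374 and 0.721).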

How the results depend on the processing

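The number of members and of all genes called with PTX moved with the test and the filter. In somata, 5 members and 513 genes became 7 members and 972 genes with the likelihood ratio test (Lss and Acss2 were added), 9 members and 1141 genes without a filter, 14 members and 2002 genes with the replicate block, and 879 genes at a threshold of 0.1. In processes, 2 members and 535 genes became 5 and 949 with the likelihood ratio test and 4 and 655 with DESeq2, which gave 1942 genes no adjusted p. They became 7 and 1129 without a filter, 13 and 1601 with the replicate block, 1 and 299 with only the 4 libraries compared, and 5 and 890 at a threshold of 0.1. The interaction gave 0 genes, or 4 with the likelihood ratio test, 4 with DESeq2, 10 without a filter and 15 with the replicate block, and 0 members in each. Without 1 library at a time, 0 to 5 members and 116 to 568 genes were called with PTX in somata, 0 to 3 members and 97 to 481 genes in processes, 15 to 18 members and 5022 to 6922 genes between compartments in control, 14 to 19 members and 5249 to 7233 genes between compartments after PTX, and 0 genes by the interaction. A group left with 1 library was assumed to vary like the others.

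Scaling by library size only called 30 members in both kinds of culture, with 13462 genes in control and 13499 after PTX, and reversed Sc5d (-0.15 and -0.18), Acaca (-1.43 and -1.25), Scd (-1.11 and -0.87) and Fads1 (-1.08 and -1.02). The split of called genes in processes against somata of control cultures, 3688 higher and 3135 lower, was 191 and 13271 with library size only and 2750 and 4704 with upper quartile normalization. For PTX in somata, 299 raised and 214 lowered became 351 and 140 with library size only. The replicate block kept every member call made without it. The 5 members called in somata were the same with DESeq2, and the cause of the other shifts was not tested. Mvd had 76 to 166 reads and Ebp 2 to 5 in a process library, so that depth limits these values.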
